A study of Mus musculus with 6 samples.

Results

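Metallothioneins and zinc transporters are described here as 10 genes taken by symbol from the 55367 gene symbols of each count file, namely the metallothionein genes Mt1 and Mt2, the zinc-sensing transcription factor gene Mtf1, the zinc exporter genes Slc30a1, Slc30a2, Slc30a5 and Slc30a7, and the zinc importer genes Slc39a5, Slc39a7 and Slc39a14. Counts were present for 8 of the 10. The study measured RNA in acinar cells of the mouse pancreas, which make and secrete digestive enzymes, with the stated aim of describing their expression pattern. All 6 libraries form 1 group of untreated mice whose genotype is given as Pdx1-Cre; Klf5-mCherry-CreERT2, that is a Cre recombinase under the Pdx1 promoter, which is active across the pancreatic epithelium, and a Klf5 allele carrying mCherry and the tamoxifen-inducible CreERT2. Each library came from 300 cells sorted for GFP, although the genotype names no GFP reporter, and was made by Smart-seq2 with 12 cycles of preamplification. Age is not given, and the labels do not tie libraries to single animals, so tests across them measure only the spread between these samples.

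A number in the deposited names, of unstated meaning, splits the libraries into set A, which holds replicates 1 to 3, and set B, which holds replicates 4 to 6. Total counts were 4670819 to 7072270 per library. The sets differed in make-up. Ribosomal RNA (rRNA) took 38.1% to 46.8% of the counts in set A and 59.9% to 60.9% in set B, and the 9 acinar markers took 17.2% to 21.3% and 5.23% to 8.65%. All 9 acinar markers were over 3 times background in every library, where background is the density of counts over genes of smell and pheromone receptors, in counts per Mb. Background was 26.6 to 39.1 in set A, and 52.8, 327 and 111 in replicates 4 to 6. The summed level of the 10 islet markers was 9.42 to 39.9 TPM (counts scaled by exon length and library total) in set A, but 1003 in replicate 4, 2230 in replicate 6 and 44.9 in replicate 5. The 6 ductal markers summed to at most 148 TPM, and the fibroblast, endothelial, macrophage and lymphoid lists each reached at most 13.7 TPM in any library. No listed marker was without counts in all libraries.

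Zinc is needed by many enzymes but is toxic when free, so cells buffer it. Metallothioneins are small cysteine-rich proteins that bind zinc and copper, and their genes are switched on by MTF1, a factor that senses free zinc and binds metal response elements in promoters. Transporters of the Slc30 family (ZnT) move zinc out of the cytosol, across the plasma membrane or into organelles, while those of the Slc39 family (ZIP) move it into the cytosol. Acinar cells load zinc into their granules and secrete it with the digestive enzymes, among them the zinc-dependent carboxypeptidases.

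Mt1 was by far the most abundant member. It lies on chromosome 8 (94179082 to 94180327, build mm10, plus strand) and its annotated exons, taken over all transcripts, cover its whole span of 1246 bp. Its level was 780, 1012 and 938 TPM in replicates 1 to 3 and 340, 123 and 240 TPM in replicates 4 to 6. Every library of set A lay above every library of set B, and the highest value was 8.23 times the lowest. Such a separation was common, as 17.2% of all genes tested showed it in this direction on a log CPM scale. The share in TPM was not computed. The mean was 572 ± 384 TPM (SD, n = 6), which placed Mt1 at rank 34 of 21951 nuclear protein-coding genes. Genes encoded in the mitochondria were left out of this ranking. Counting error is small beside this spread. With 4310 counts in replicate 1 Mt1 had 611 CPM (counts scaled to the library total; exact Clopper-Pearson 95% interval 593 to 630), and with 329 counts in replicate 5 it had 70.4 CPM (63.0 to 78.5). These intervals cover counting error only.

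Mt2, the neighbouring metallothionein gene (chromosome 8, 94172664 to 94173568), was measured through a small part of its length. The antisense gene Gm45774 on the other strand covers 432 of its 588 exonic bp, which leaves 156 bp, or 26.5%, at its 3′ end outside any other gene. Gm45774 itself had no counts in any library, and of 1248 protein-coding genes with no base outside other genes 99.4% had none either, where most of the 11877 genes free of overlap had counts. Mt2 had 104, 68 and 58 counts in replicates 1 to 3 and 35, 15 and 36 in replicates 4 to 6. By full exon length this gave 39.9, 34.9 and 26.3 TPM in set A and 17.6, 11.9 and 18.0 TPM in set B, so the sets did not overlap for Mt2 either. On the log CPM scale 17.2% of all genes tested were apart in this direction. The mean was 24.8 ± 10.9 TPM (SD, n = 6), or 93.3 TPM when only the exonic bases outside Gm45774 were taken as its length.

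The difference between Mt1 and Mt2 within libraries was 4.22 ± 0.69 log2 units (SD, n = 6) on the log2(TPM + 1) scale, with Mt1 higher in 6 of 6 libraries. Scaled by the bases outside Gm45774, a choice made after the values were seen, it was 2.35. The exact two-sided sign-flip test gave p = 0.031, the smallest that 6 libraries allow, and 0.052 after adjustment over 5 planned pairs. Of these, 2 could not be measured and were counted as not passing. The lowest adjusted value possible was then 0.052, so no pair could pass 0.05. As Gm45774 covers most of its exonic bases, the level of Mt2 by full exon length is a lower limit. Mt1 is scaled by its whole span of 1246 bp, so its level could be a lower limit too. The size of the difference between Mt1 and Mt2 is not fixed by these counts. Mt1 had 41.4, 61.4 and 75.5 counts per count of Mt2 in replicates 1 to 3 and 41.0, 21.9 and 28.3 in replicates 4 to 6. The change of this ratio between libraries does not depend on gene length or on the library total, but its size does depend on the lengths counted. The ratio was lower in each library of set B than in each of set A, narrowly so for replicate 4 against replicate 1. It divides by as few as 15 counts of Mt2, in replicate 5, and its counting error was not computed. With 35 counts of Mt2 in replicate 4, its 41.0 cannot be told from the 41.4 of replicate 1.

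**Figure D1:**
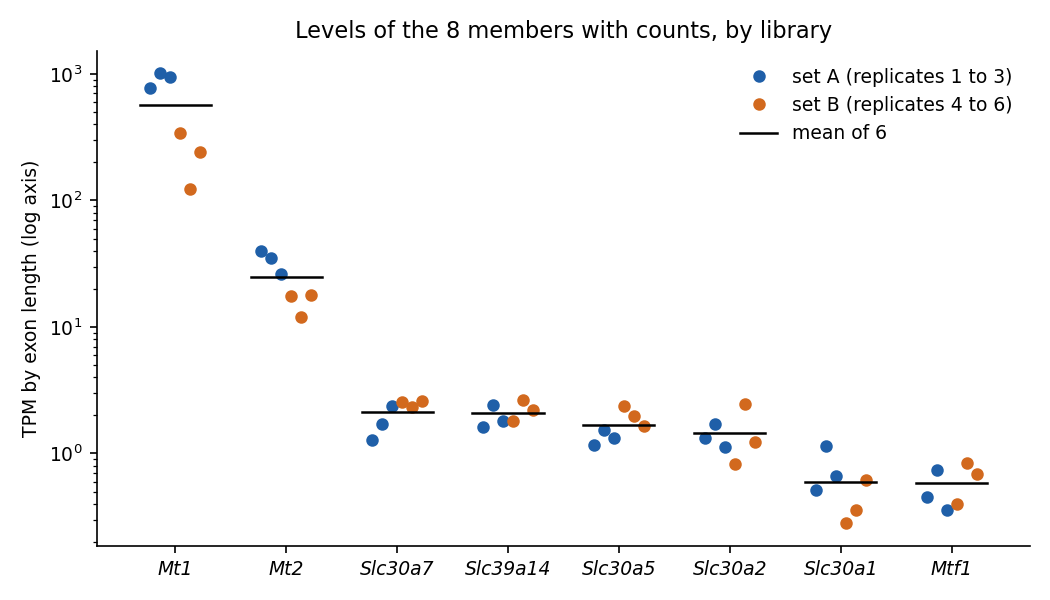
Level of each of the 8 members with counts in TPM by exon length on a log axis, with 1 point per library (blue, set A; orange, set B) and a line at the mean of 6 libraries. Mt1 stands at 123 to 1012 TPM and Mt2 at 11.9 to 39.9 TPM, with set A above set B in both, and the transporter genes and Mtf1 stay under 3 TPM.

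Promoter sequences are shown for the metallothionein genes and for Slc30a1, the exporter gene that is the other textbook target of MTF1, with Slc30a7 as a member that differed little between the sets. As that value guided the choice, the sequences printed cannot test a link between cores and set differences. Each runs from 250 bases before to 30 bases after the RefSeq start (build GRCm38.p6, written 5′ to 3′ in the direction of transcription), and capitals mark the 7-base cores of the metal response element, TGCACNC or TGCGCNC, on either strand.
Mt1 promoter (chr8:94178839-94179118, plus strand): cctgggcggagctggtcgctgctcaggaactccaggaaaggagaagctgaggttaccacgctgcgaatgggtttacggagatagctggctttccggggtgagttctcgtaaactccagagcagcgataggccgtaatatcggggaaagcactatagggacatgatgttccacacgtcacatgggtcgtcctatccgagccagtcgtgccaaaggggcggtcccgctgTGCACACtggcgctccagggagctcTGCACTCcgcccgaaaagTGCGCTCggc
Mt2 promoter (chr8:94172368-94172647, plus strand): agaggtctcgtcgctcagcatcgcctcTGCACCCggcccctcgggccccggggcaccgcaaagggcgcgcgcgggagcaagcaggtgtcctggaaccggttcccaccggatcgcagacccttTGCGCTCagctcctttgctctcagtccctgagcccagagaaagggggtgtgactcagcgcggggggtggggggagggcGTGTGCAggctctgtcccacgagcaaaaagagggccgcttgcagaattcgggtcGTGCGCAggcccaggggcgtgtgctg
Slc30a1 promoter (chr1:191906531-191906810, plus strand): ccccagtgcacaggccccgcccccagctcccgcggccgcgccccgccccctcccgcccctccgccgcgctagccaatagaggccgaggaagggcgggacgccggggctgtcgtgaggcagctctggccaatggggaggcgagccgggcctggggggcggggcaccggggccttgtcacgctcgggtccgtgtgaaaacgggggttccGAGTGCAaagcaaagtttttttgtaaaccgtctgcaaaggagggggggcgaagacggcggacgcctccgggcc
Slc30a7 promoter (chr3:116007377-116007656, minus strand): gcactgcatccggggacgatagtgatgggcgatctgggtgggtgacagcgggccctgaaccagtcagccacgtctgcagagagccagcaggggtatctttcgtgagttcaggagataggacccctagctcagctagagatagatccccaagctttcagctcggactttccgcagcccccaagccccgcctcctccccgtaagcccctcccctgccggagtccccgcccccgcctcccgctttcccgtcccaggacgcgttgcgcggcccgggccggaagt

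The Mt1 window held 3 cores, beginning at base -23 before the start and at bases 3 and 21 from it. The Mt2 window held 4, beginning at -223, -128, -50 and 5, of which 2 were on the other strand. Of 32817 windows of this length in the RefSeq table, 24.1% held at least 1 core, 1.73% at least 3 and 0.405% at least 4. Slc30a1 held 1 core at -43, Slc30a2 2 cores at -214 and -200, and Slc30a5 1 core at -48, while the windows of Slc30a7, Mtf1 and Slc39a7 held none. The windows of Slc30a2 and Slc30a5 are not printed. Their log2 differences between the sets, from the comparison below, were -0.47 and 0.09. Of the 2 windows listed for Slc39a5, 1 held a core at -129. A window was found for 9 of the 10 members, all but Slc39a14. The cores are matches of letters, and no binding was measured here.

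Among the exporters, Slc30a1 moves zinc across the plasma membrane out of the cell (chromosome 1, 191906767 to 191913247). It was low, with 12, 20 and 13 counts in replicates 1 to 3 and 5, 4 and 11 in replicates 4 to 6. These gave 0.516, 1.15 and 0.661 TPM in set A and 0.281, 0.355 and 0.616 TPM in set B, with a mean of 0.597 ± 0.309 TPM (SD, n = 6). On this scale replicate 6 lay above replicate 1, so the sets overlapped. Slc30a2, which loads zinc into secretory vesicles and is the exporter known from zymogen granules (chromosome 4, 134343181 to 134354484), had 1.33, 1.70 and 1.12 TPM in set A and 0.828, 2.48 and 1.24 TPM in set B. Its mean was 1.45 ± 0.580 TPM from 10 to 21 counts per library, and its highest and lowest values both fell in set B. Slc30a2 exceeded Slc30a1 by 0.61 ± 0.39 log2 units in 6 of 6 libraries (exact two-sided sign-flip p = 0.031, adjusted 0.052). By whole gene span in place of exon length the difference was -0.04, so its direction rests on the length used.

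Slc30a5 and Slc30a7 carry zinc into the early secretory pathway, where it is fitted into enzymes such as alkaline phosphatases. Slc30a7 (chromosome 3, 115938973 to 116007406) had 1.28, 1.71 and 2.35 TPM in set A and 2.58, 2.35 and 2.59 TPM in set B, and Slc30a5 (chromosome 13, 100802648 to 100833427) had 1.17, 1.53 and 1.32 and then 2.39, 1.98 and 1.65 TPM. The values of Slc30a5 did not overlap between the sets, with set B higher, on a scale on which the median of all genes tested was 1.44 times as high in set B. On the log CPM scale its sets did overlap, where 15.5% of all genes tested had set B wholly higher. In TPM the difference of Slc30a5, 0.58 on the log2 scale, was close to the median of all genes tested, 0.53. Slc30a5 was below Slc30a7 by 0.23 ± 0.20 log2 units in 6 of 6 libraries, with the same exact p of 0.031 (adjusted 0.052), and the difference was 0.07 in the other direction by gene span.

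The importer Slc39a14, which takes up zinc, iron and manganese and is known as responsive to inflammation (chromosome 14, 70303469 to 70351425), had 1.62, 2.41 and 1.80 TPM in set A and 1.82, 2.65 and 2.23 TPM in set B. With a mean of 2.09 ± 0.402 TPM and 60 to 84 counts per library it was the steadiest member, with a coefficient of variation of 0.193 where counting alone gives 0.117. The sets overlapped. Mtf1 (chromosome 4, 124802104 to 124849800) had 0.456, 0.746 and 0.359 TPM in set A and 0.398, 0.837 and 0.692 in set B, from 12 to 22 counts. In replicate 5 its 16 counts compare with 15.6 expected from background alone over its span of 47.7 kb.

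Slc39a5, the importer of the basolateral surface, and Slc39a7, which releases zinc from the endoplasmic reticulum and Golgi, had no counts in any library. No absence can be read from this. Slc39a5 (chromosome 10, 128395931 to 128401229) lies wholly within the span of Ankrd52 on the other strand, with 0 of its 2225 exonic bp free. Slc39a7 (chromosome 17, 34028269 to 34031682) shares all but 102 of its 2584 exonic bp with Gm20427, a transcript on the same strand that also had no counts. The comparisons of Slc39a14 with Slc39a5 and of Slc39a7 with Slc30a7 were therefore not made.

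**Figure D2:**
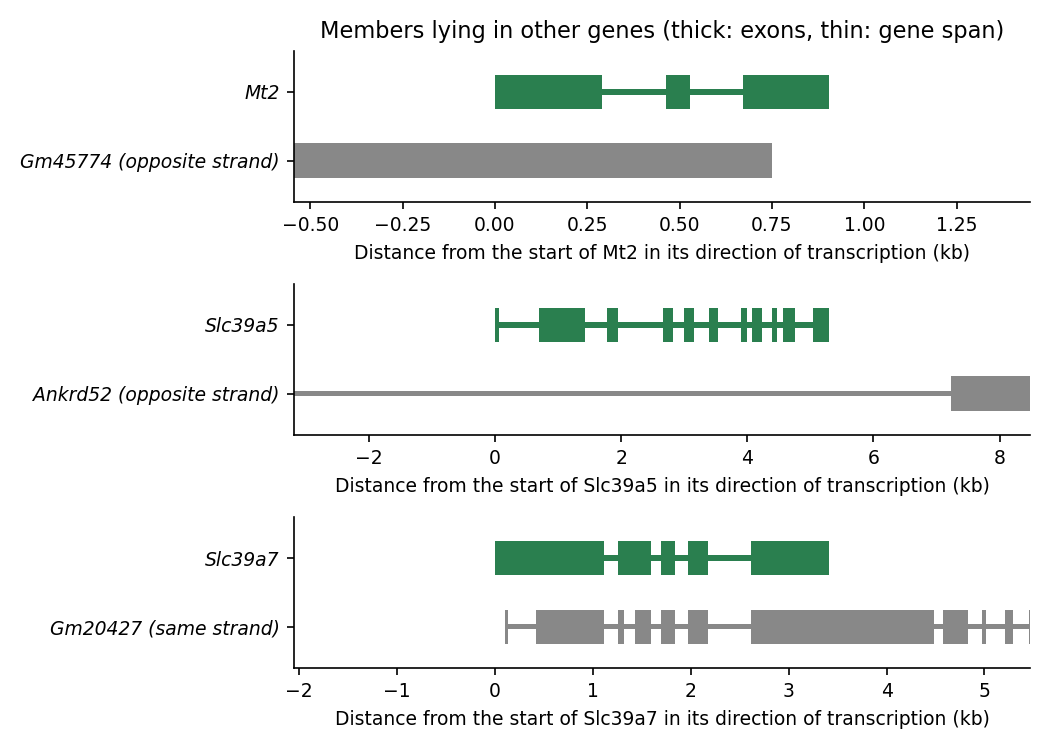
Position of Mt2, Slc39a5 and Slc39a7 (green) against the overlapping gene of each (grey), in kb from the start of the member, with exons as thick and spans as thin bars. Gm45774 covers all of Mt2 but its last 156 bp, Slc39a5 lies within an intron of Ankrd52, and Gm20427 covers Slc39a7 except for 102 bp at its start.

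Ordered by mean TPM, Mt1 and Mt2 were followed by Slc30a7, Slc39a14, Slc30a5, Slc30a2, Slc30a1 and Mtf1. Mt2 exceeded Slc30a7 by 2.94 ± 0.86 log2 units in 6 of 6 libraries. Below that, Slc30a7 and Slc39a14 (0.02 ± 0.27), Slc39a14 and Slc30a5 (0.21 ± 0.24), Slc30a5 and Slc30a2 (0.14 ± 0.40) and Slc30a1 and Mtf1 (0.00319 ± 0.279) did not differ beyond 1 SD of the differences within libraries. The step from Slc30a2 to Slc30a1 did, by exon length.

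Of the other 19 genes of these families, including Mt3 and Mt4, 3 had counts over 3 times background in every library. They were Slc39a1, a broadly expressed importer of the plasma membrane, at 6.99 ± 0.913 TPM (SD, n = 6), Slc39a9 at 1.70 ± 0.322 and Slc39a3 at 0.984 ± 0.366 TPM. The lowest level of Slc39a1 in any library, 5.87 TPM, was above the highest of the 5 transporters with counts among the members, 2.65 TPM. Slc39a11, named after its values were seen, had 21.7 ± 5.23 TPM by exon length but 0.258 TPM by its span of 405 kb, so its place among these genes depends on the length used. Mt3 had 5 counts and Mt4 2 counts in all libraries together, and both were named outside the background rule.

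Slc30a8, the transporter that loads zinc into insulin granules and marks islet beta cells, had 1, 0 and 2 counts in set A and 9, 17 and 28 in set B. In set A background predicted 1.07, 1.10 and 1.57 counts, so nothing above background was detectable there. In set B it predicted 2.13, 13.2 and 4.47 counts. Replicates 4 and 6 therefore lay above it while replicate 5 lay near it, and replicates 4 and 6 are the libraries with the high islet marker sums given above.

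**Figure D3:**
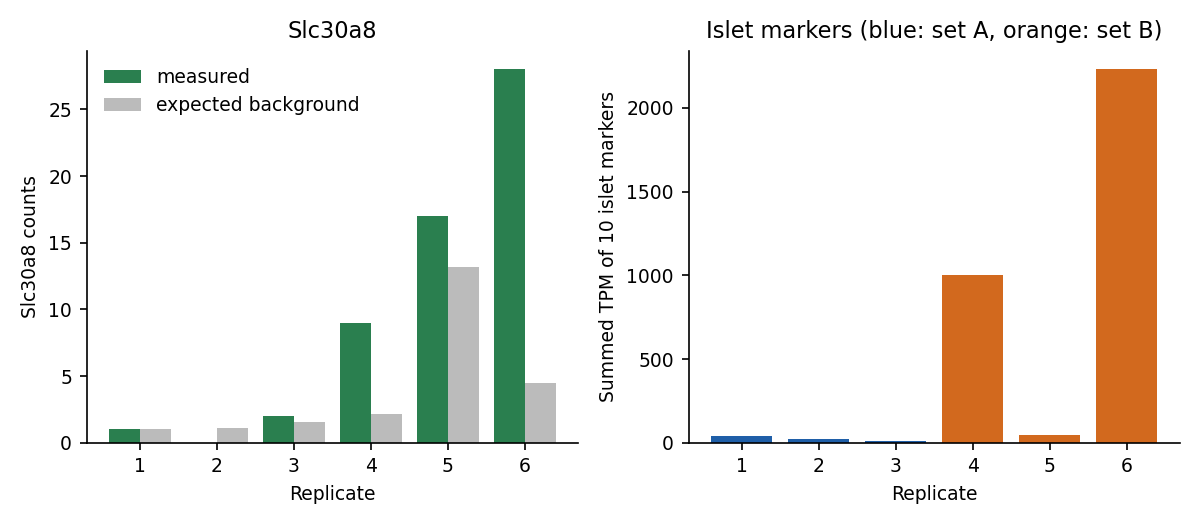
Left, counts of Slc30a8 (green) and the counts expected from background (grey) in each library. Right, summed TPM of the 10 islet markers in each library (blue, set A; orange, set B). Slc30a8 exceeds background clearly in replicates 4 and 6, where the islet sum is 1003 and 2230 TPM.

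The sets were compared with edgeR over all genes, although they may be batches and are no groups of the study. Mt1 was lower in set B by an edgeR log2 difference of -2.37 (SE 0.47), a 5.17-fold difference, with an edgeR adjusted p of 0.087 over 8723 genes, and so did not pass. Mt2 differed by -1.55 (SE 0.36, edgeR adjusted p = 0.087) and Slc30a1 by -1.32 (SE 0.52, edgeR adjusted p = 0.146). Slc30a2 (-0.47), Slc39a14 (-0.32), Mtf1 (-0.24), Slc30a7 (0.01) and Slc30a5 (0.09) had differences of at most 1.23 SE in size. None of the 8 members tested passed, where 1 of all genes did (0.0115%). An unadjusted p under 0.05 with set B lower was reached by Mt1, Mt2 and Slc30a1, 3 of 8, against 9.76% of all genes (25.9% in either direction). The same 3 had log CPM values that did not overlap between the sets in that direction, against 17.2% of all genes. For Slc30a1 this rests on 12 counts in replicate 1 against 11 in replicate 6, within counting error, and its TPM values overlapped. A log2 difference as low as that of Mt1 or lower was found in 0.115% of the genes tested. The median over the 8 members was -0.40, over the 8 other family genes tested -0.38, and over all genes -0.00397. In set B 6 of the 8 members and 7 of the 8 other family genes were lower, so this shift was not particular to the members.

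DESeq2, which called 2.6% of the genes lower and 9.1% higher in set B, gave Mt1 -2.35 with an adjusted p of 1.5e-04 and Mt2 -1.53 with 0.0091. With edgeR both also passed without replicate 4 (Mt1 adjusted p = 0.0064, Mt2 0.014), where 5.72% of all genes tested were called lower. They passed without replicate 5 (Mt1 edgeR adjusted p = 1.1e-05, Mt2 0.0059), where 4.07% were called lower, and with no filter on low counts (Mt1 0.0018, Mt2 0.0057), where 0.682% were. Over all alternatives the difference of Mt1 ran from -2.94, without replicate 4, to -2.004, without replicate 5, with adjusted p from 1.1e-05 to 0.303, and that of Mt2 was -1.83 to -1.30.

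**Figure D4:**
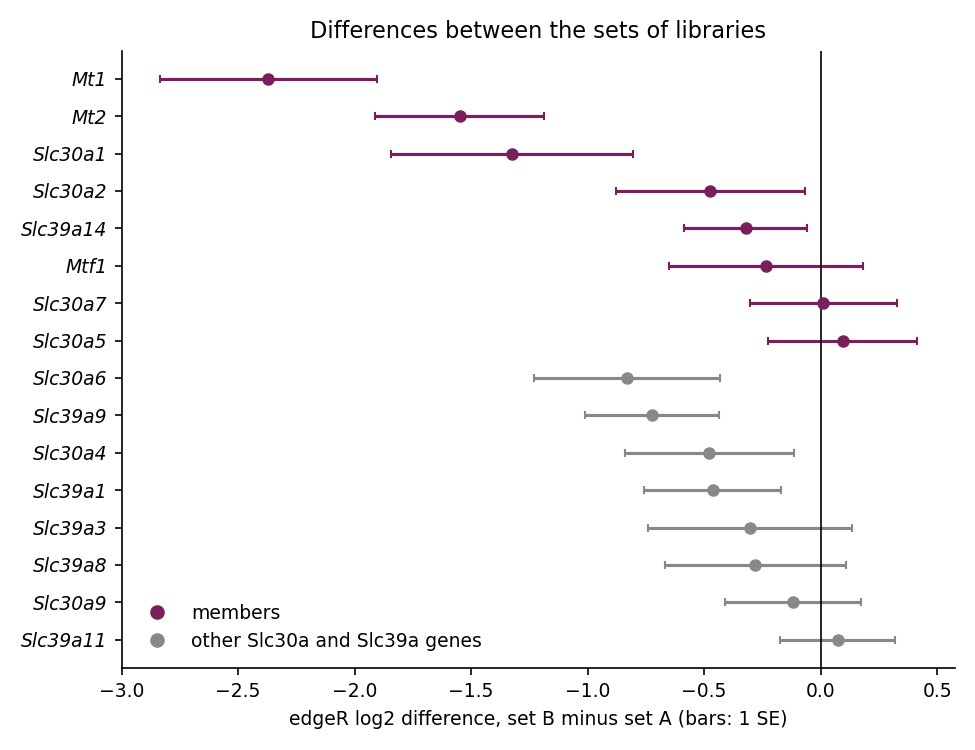
Difference between the sets in edgeR log2 units, set B minus set A, with bars of 1 SE, for the 8 members tested (purple) and 8 other Slc30a and Slc39a genes (grey). Mt1, Mt2 and Slc30a1 lie lowest, at -2.37, -1.55 and -1.32, and the remaining members lie between -0.47 and 0.09.

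Acinar enzyme genes differed in the same direction as Mt1. All 9 acinar markers were lower in set B, none past the adjusted threshold, with a median difference of -1.41. Per 1000 counts of these markers, added as a scale once the values had been seen, Mt1 had 2.87, 4.01 and 3.99 counts in replicates 1 to 3 and 2.44, 1.35 and 1.87 in replicates 4 to 6. The sets still did not overlap, and the ratio of their means was 1.92. The exact two-sided permutation test gave p = 0.1, the smallest that 3 libraries against 3 allow. Outside rRNA, Mt1 had 988 to 1296 CPM in set A and 180 to 527 in set B. Cell make-up, rRNA share and background, whose values by set stand above, moved with the sets too, and their part in the difference was not tested. In such pooled cells, fewer cells of a type and less RNA per cell cannot be told apart.

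**Figure D5:**
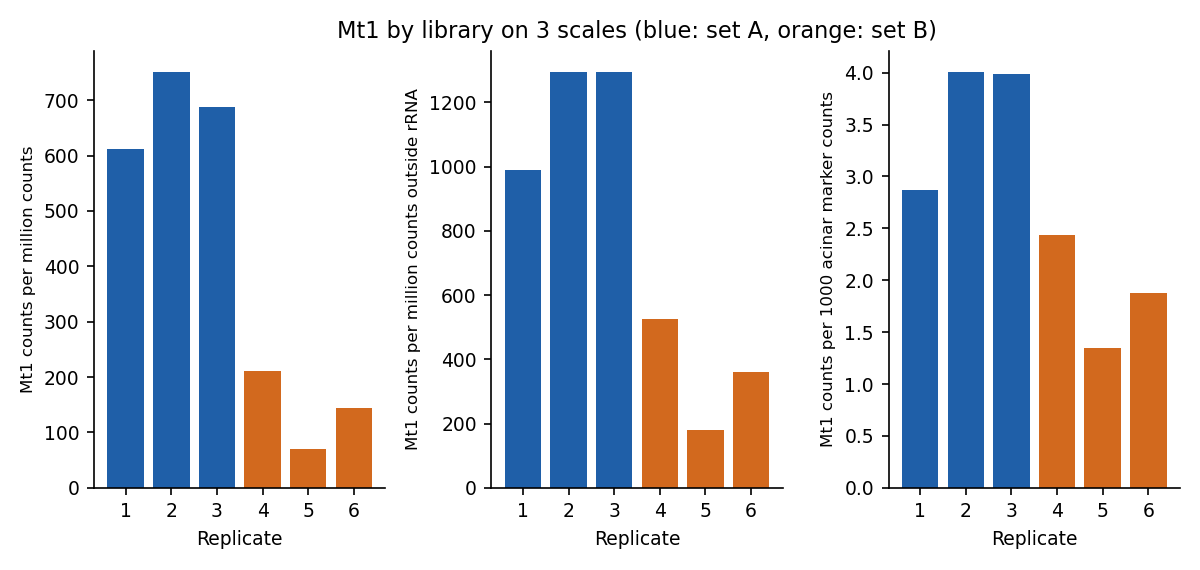
Counts of Mt1 in each library in CPM (left), in CPM of the counts outside rRNA (middle) and per 1000 counts of the 9 acinar markers (right), with bars from 0 (blue, set A; orange, set B). Set A lies above set B on each scale, by less on the right, where replicate 1 has 2.87 and replicate 4 has 2.44.

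Genes of related functions were read from the same edgeR fit, and none of those listed here passed after adjustment. Over all genes tested, 4385 of 8723 were lower in set B, and 9.76% were lower with an unadjusted edgeR p under 0.05. Of 7 zinc-dependent enzymes, 4 could be tested and all had negative differences, 3 of them with an unadjusted edgeR p under 0.05. The exception was Cpa3 at -0.09 (SE 0.50), a carboxypeptidase known from mast cells, named after its value was seen. Cpa1, the pancreatic carboxypeptidase that holds zinc in its active site, had 22463 ± 1721 TPM (SD) in set A against 9823 ± 1838 in set B, with 3 libraries in each, and Cpb1 had 10946 ± 1119 against 5427 ± 502 TPM. Cpa1 is also among the acinar markers, so these lists are not independent. Of the 8 genes handling other metals, 5 could be tested, of which 2 were lower and 3 higher in set B, with a median of 0.04. The lower ones were the iron storage genes Fth1, at -1.11 (SE 0.34), and Ftl1, at -1.55 (SE 0.49). The transporter genes Slc11a2 (0.10) and Atp7a (0.80) and the transferrin receptor gene Tfrc (0.04), named after their values were seen, were the others. Among metal and oxidative stress genes, Gclc (0.20) and Txnrd1 (-0.48) could be tested, 2 of 6. Glucocorticoid signal is also known to raise metallothionein genes, and its part in the difference of Mt1 was not tested. In the glucocorticoid and stress list 5 of 6 tested genes had negative differences, and Sgk1 had 0.11. Of the 5, 2 had an unadjusted edgeR p under 0.05, a list too short to set against the 9.76% of all genes. Its most abundant genes were Zbtb16, at 17.8 ± 4.31 TPM with a difference of -0.56, and Klf9, at 9.71 ± 1.31 TPM with -0.54, while Fkbp5 (-1.12) and Tsc22d3 (-1.11) had the lowest unadjusted p in the list. These and Sgk1 were named after their values were seen.

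The 3 genes most alike to Mt1 over the 6 libraries, by Pearson's r of log2(TPM + 1) among 1313 protein-coding genes with a mean of 5 TPM or more, were Ahcy (r = 0.998), Retreg1 (0.996) and Eif1 (0.994). The levels of Ahcy were 28.1, 33.2 and 29.1 TPM in set A and 17.4, 9.97 and 14.2 in set B. Mt2 ranked at 114 with r = 0.924. Since 138 genes, or 10.5%, reached 0.9, a high r over 6 libraries that share these sets is common. For Slc30a2, with 21 counts at most, the highest were Marchf5 (r = 0.996), Vdac1 (0.976) and Fgf14 (0.957), each highest in replicate 5, the library with the highest background. On the log CPM scale with TMM, r was 0.989 for Marchf5, 0.501 for Vdac1 and 0.811 for Fgf14, and only 1 of the 3 stayed among the top 3, as under Spearman's rho. For Mt1, 3 of the 3 stayed under TMM, 1 under Spearman's rho and 2 without replicate 5. No anchor could be set for Slc39a5, which has no counts.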

How the data were processed

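Per the submitters' processing notes, the authors used Trim Galore 0.6.4, FastQC, STAR 2.7.9a, SAMtools and featureCounts with build mm10. The authors deposited whole-number read counts for each gene symbol, not normalized. A further column holds the length of the counted interval, which equals the whole gene span, so introns were counted. The annotation release, strand setting and treatment of multi-mapping reads are not given in the sources used here. The labels call the molecule genomic DNA.

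Exon lengths came from GENCODE M21 for 55144 of 55367 symbols, with 99.998% of the counts. Background was estimated over 1765 receptor genes spanning 13.5 Mb with 7904 counts. Sets were compared by the quasi-likelihood test of edgeR 4.0.16 after filterByExpr and TMM scaling, with Benjamini-Hochberg adjustment and a threshold of 0.05, with DESeq2 1.42.0 as an alternative. In simulated counts of 8255 genes edgeR recovered 59% of 4-fold and 8% of 2-fold changes between the sets, and 6.94% of its calls were false. The draws used the same mean profile for all libraries and the fitted trend of dispersion, with 100 genes changed at each size. They did not copy the differences in make-up between the sets or the background of replicate 5. These rates need not hold for the measured counts. Tables were made with pandas 2.3.3, scipy 1.17.1 and numpy 2.4.6 in Python 3.11.15, figures with matplotlib 3.10.9 and fits in R 4.3.3. A count of 0 allows up to 3 counts, or 0.424 to 0.642 CPM. Promoters are RefSeq's.

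Genes named were the members, other family genes over 3 times background in all libraries with Slc30a8, the 3 genes most alike to Mt1 and Slc30a2, and the 2 most abundant of each list. Mt3, Mt4, Slc30a9, Slc39a11 and others marked in the text were named after their values were seen. The members and lists were chosen with earlier results of these data known. Alternatives were other lengths, pseudocount 0.1 in place of 1, background subtraction, totals without rRNA, no filter, no TMM, and each replicate left out.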

Additional observations from a re-analysis of the deposited data

Results flagged for a closer look

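Background in replicate 5 stood apart from the other 5 libraries, with 327 counts per Mb over the receptor genes against 26.6 to 111. It was the only one of 17 values examined over 6 libraries whose gap to the nearest library exceeded Dixon's critical share of the range, a test that chance passes in about 1 of 20 groups. Expected background made up 97.4% of the counts of Mtf1 in that library, 53.0% of the 4 counts of Slc30a1, 39.9% of those of Slc30a7, 32.5% of those of Slc30a5, 26.1% of those of Slc39a14, 19.4% of those of Slc30a2, 1.97% of those of Mt2 and 0.124% of those of Mt1.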

How the results depend on the processing

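No paired analysis was possible because the replicate numbers run from 1 to 6 in a single group and the sets share none. Of 36 alternatives for the 3 pair differences, 31 kept direction and side of the threshold. The side was fixed in advance wherever all 5 planned pairs were adjusted for, since 0.052 was then the lowest value possible. For these alternatives only the direction could change. By gene span, Slc30a2 minus Slc30a1 became -0.0415 and Slc30a5 minus Slc30a7 became 0.0658. Adjusted over the 3 measured pairs alone, a choice made after the values were seen, Mt1 minus Mt2 (4.22), Slc30a2 minus Slc30a1 (0.61) and Slc30a5 minus Slc30a7 (-0.23) passed at 0.031 each. Leaving out 1 library left no p under 0.0625 possible. Genes called higher and lower in set B were 1 and 0 with edgeR (2258 at an unadjusted p under 0.05), 794 and 227 with DESeq2, 790 and 203 with no filter, and 1 and 1 without TMM, which moved the median of all genes to 0.19. With no filter the median over 29779 genes was 0.77, and the difference of every member tested was lower than in the main fit. Whether the changes of sign with no filter come from that shift was not tested. Leaving out a library gave 0 to 1656 higher and 0 to 561 lower, with the highest counts without replicate 4 and with 366 and 369 without replicate 5. The cause was not tested. Between the sets, Mt1, Mt2, Slc30a1, Slc30a2, Slc39a14 and Mtf1 kept their direction in all 10 alternatives each. Slc30a5 changed sign with no filter (-0.148) and, without a library, ran from -0.294 (replicate 4) to 0.236 (replicate 5), with -0.0401 and -0.0232 without replicates 1 and 3. Slc30a7 changed sign with no filter (-0.228) and ran from -0.234 (without replicate 1) to 0.182 (without replicate 5), also negative without replicates 2 (-0.132), 4 (-0.216) and 6 (-0.0643). Slc30a9 changed sign without TMM (0.0602) and ran from -0.307 (without replicate 3) to 0.0215 (without replicate 5). Slc39a11 changed sign with no filter (-0.191) and ran from -0.148 (without replicate 2) to 0.147 (without replicate 5), also negative without replicate 4 (-0.0979). Of 88 alternative levels of members 20 moved by more than 1 SD. Counts of 4 to 22 per library limit Slc30a1, Slc30a2 and Mtf1.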
